A study of Rattus norvegicus with 13 samples.

Results

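The windows described here are 1 kb stretches of the rat genome whose DNA methylation signal was high in sperm and was still high in morulae made from such sperm. They were chosen on their measured values: the mean signal over 7 sperm libraries was at least 1 CPM (counts per 1000000 counts of a library), and the mean over 6 morula libraries was at least 1 and under 4 CPM. By this rule 60553 of 2618741 windows on chromosomes 1 to 20 were members, which is 2.31% of these windows, and the deposited tables hold 2782040 windows in all. The members made up 41.4% of the 146309 windows with a sperm mean of at least 1 CPM, and 61.9% of the 97860 windows with a morula mean from 1 to under 4 CPM. The levels, their ratio between morula and sperm, and the runs formed from them follow from the choice and are given as a description, without a test.

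In MeDIP (methylated DNA immunoprecipitation) sheared DNA is enriched with an antibody that binds 5-methylcytosine and is then sequenced. The signal of a window rises with the level of methylation and with how many methylatable cytosines it holds. After fertilisation a mammalian embryo loses most of the methylation that the sperm and the egg brought with them, and the morula lies within this period. The best known regions that keep methylation through it, studied mainly in mouse, are the control regions of imprinted genes and some families of retroelements. The signal of a morula comes from the paternal and the maternal copy together, and these were not separated here.

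The study followed the F3 generation of outbred Hsd:Sprague Dawley rats. Gestating females of the F0 generation had received DDT (dichlorodiphenyltrichloroethane, an insecticide) or its vehicle DMSO on embryonic days 8 to 14, and later generations received neither. The groups were DDT morula (3 libraries), control morula (3), DDT sperm (4) and control sperm (3). Sperm was taken from the cauda epididymis of males aged 1 year, and the morulae came from intracytoplasmic injection of F3 sperm into eggs of adult donor females. All morulae therefore carry a manipulated fertilisation, and each morula library is a pool of embryos. The labels do not tie a replicate number to an animal, so p-values measure the spread between these samples. The libraries held 37842198 to 40787673 counts in DDT morulae, 48923904 to 65864303 in control morulae, 33684143 to 128386419 in DDT sperm and 30386626 to 193750804 in control sperm. DDT sperm replicate 4 and control sperm replicate 3 were the shallowest of the sperm libraries and stood apart from the other 5: 11.9% and 13.3% of their windows held no count, against 4.97% to 6.35% in every other library. Results that rest on these libraries are given with and without them. Coordinates are those of build Rnor_6.0, and gene annotation and sequence of that build were not used here.

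The members had a median of 2.01 CPM in morulae and of 1.78 CPM in sperm. In 90% of them the morula mean lay between 1.07 and 3.49 CPM and the sperm mean between 1.05 and 3.00 CPM. Across all windows of chromosomes 1 to 20 the medians were 0.291 CPM in morulae and 0.26 CPM in sperm. The 82137 windows that were high in sperm and under 1 CPM in morulae had medians of 0.53 CPM in morulae and 1.18 CPM in sperm. The 37307 windows high in morulae alone had medians of 1.33 and 0.723 CPM in morulae and sperm. Within the members the morula mean was above the sperm mean in 40405 windows (66.7%, against 57.0% of all windows with a count in both tissues). The median log2 ratio of morula over sperm was 0.19, and 56289 members (93.0%) lay within 2-fold of equal signal. A further 2334 members (3.85%) were at least 2-fold higher in morulae and 1930 (3.19%) at least 2-fold lower. CPM is a share of each library's own counts, so equal or higher CPM in morulae does not show equal or higher methylation. Without the sperm libraries apart the median log2 ratio at the same members was 0.39, and the morula mean was above the sperm mean in 76.0% of them. When the rule itself left these libraries out, it chose 56392 windows with a median log2 ratio of 0.36, of which 73.9% had the higher mean in morulae.

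Among all windows with a sperm mean of at least 1 CPM, the morula signal fell into a large low class and a second, broad class. Between 0.25 and 0.50 CPM in morulae there were 34759 windows, and between 1.5 and 1.75 CPM there were 6735. The numbers then held at 6733 and 6861 windows per 0.25 CPM up to 2.25 CPM and declined to 1256 between 3.75 and 4.00 CPM. The lower limit of 1 CPM in morulae therefore stands on the slope between these classes, where 9252 members had a morula mean from 1.00 to 1.25 CPM. The 3 members nearest the sperm limit had sperm means of 1.00000, 1.00004 and 1.00009 CPM, and the 3 windows nearest to it outside had 0.99999 CPM each. At the lower morula limit the nearest members had morula means of 1.00001, 1.00003 and 1.00005 CPM and the nearest windows outside 0.99997 CPM each. At the upper limit the nearest members had 3.99988, 3.99966 and 3.99962 CPM, and the nearest windows outside 4.00017, 4.00054 and 4.00072 CPM. Within 0.1 CPM of these limits lay 5821 members at the sperm limit (9.61%), 3996 at the lower morula limit (6.60%) and 440 at the upper one (0.727%).

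**Figure D1:**
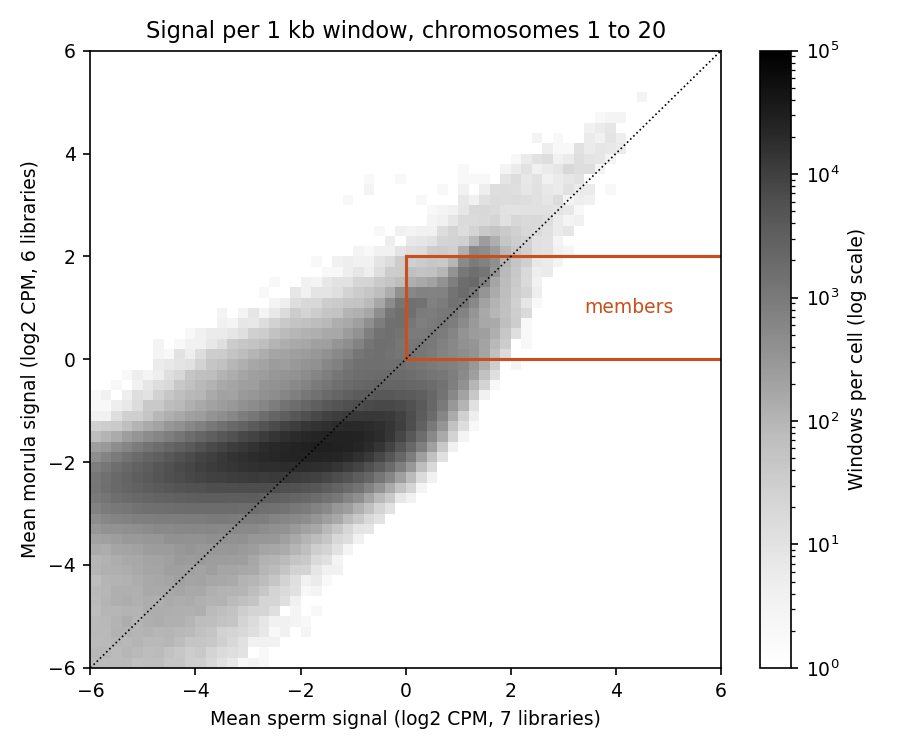
Mean morula signal (log2 CPM, 6 libraries) against mean sperm signal (log2 CPM, 7 libraries) for the windows of chromosomes 1 to 20, with the number of windows per cell in grey on a log scale and equal signal as a dotted line. The orange lines bound the 60553 members, whose median was 2.01 CPM in morulae and 1.78 CPM in sperm.

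Single libraries followed the means. Of the members, 50644 (83.6%) had at least 1 CPM in each of the 6 morula libraries, 40323 (66.6%) in each of the 7 sperm libraries, and 36434 (60.2%) in all 13. The median CPM over the members was 2.30, 1.91 and 1.87 in DDT morula replicates 1 to 3 and 1.90, 1.94 and 2.06 in control morula replicates 1 to 3. In sperm it was 1.72, 1.67, 1.60 and 2.17 in DDT replicates 1 to 4 and 1.55, 1.37 and 2.20 in control replicates 1 to 3. Both sperm libraries that stand apart lay within the range of the morula libraries, and the other 5 lay below every morula library. A member held a median of 67 to 265 counts per library, and 7 members were at or under the counting floor of 3 counts in at least 1 library.

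The members took 12.9% ± 1.46 of all counts in DDT morulae (SD, n = 3), 12.4% ± 0.519 in control morulae (n = 3), 11.5% ± 1.81 in DDT sperm (n = 4) and 11.0% ± 2.99 in control sperm (n = 3). The tissues overlapped in this share. That of the windows high in sperm alone was 4.54% ± 0.056 and 4.69% ± 0.155 in DDT and control morulae and 10.8% ± 1.01 and 10.1% ± 2.15 in DDT and control sperm. The windows high in morulae alone took 5.49% ± 0.472 and 5.23% ± 0.253 of counts in DDT and control morulae, against 2.54% ± 0.170 and 2.54% ± 0.131 in DDT and control sperm. These classes were defined by the same libraries. Without the sperm libraries apart, the members took a mean of 10.1% of sperm counts (n = 5, range 8.75% to 10.9%).

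**Figure D2:**
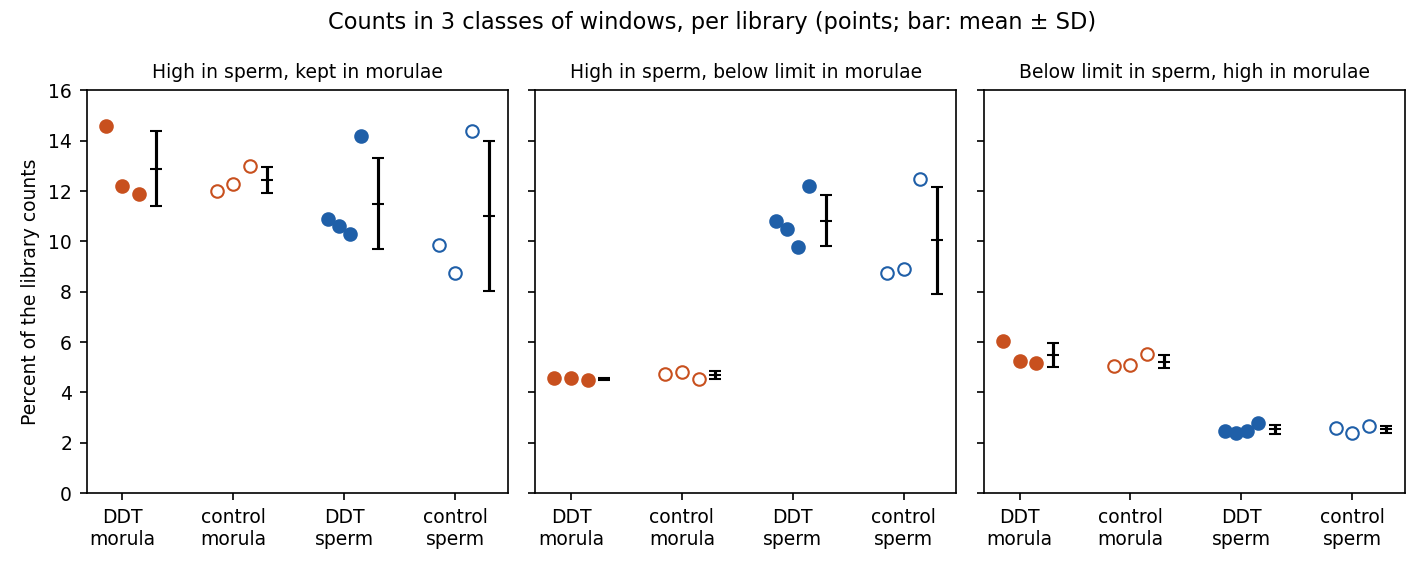
Percent of each library's counts that fell in the members (left), in windows high in sperm and under 1 CPM in morulae (middle) and in windows under 1 CPM in sperm and high in morulae (right), with 1 point per library and the mean ± SD as a bar. The members took 11.9% to 14.6% of counts in morula libraries and 8.75% to 14.4% in sperm libraries.

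The signal of a member varied little between morula libraries. The median coefficient of variation over the members was 14.3% among 6 morula libraries, where counting alone gives 10.3%. It was 26% among 7 sperm libraries and 12.1% among the 5 without those apart, where counting alone gives 9% and 6.92%. Across the members, which are not independent of each other, the log2 CPM of pairs of morula libraries correlated at r = 0.851 to 0.900. Pairs of a morula and a sperm library correlated at 0.298 to 0.614. Every pair of morula libraries thus correlated more closely over the members than any pair of a morula and a sperm library. Sperm libraries differed among themselves too. Pairs among the 5 correlated at 0.617 to 0.937, and pairs of 1 of these and 1 of those apart at 0.395 to 0.57. The latter range lay within that of morula and sperm pairs.

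The 5 members with the highest value in their lowest library had at least 3.46 CPM in each of the 13 libraries. The first was chr1:54424001-54425000, with 3.62, 4.17 and 4.17 CPM in DDT morulae, 3.6, 3.98 and 3.62 in control morulae, 5.06, 4.69, 4.34 and 7.99 in DDT sperm and 4.37, 3.8 and 8.92 in control sperm. The next window, chr1:54425001-54426000, belonged to the same run of 6 members and had a mean of 3.86 CPM in morulae and 6.09 CPM in sperm. Both carried more signal in the sperm libraries apart than in any other library. At chr2:49318001-49319000 all 13 libraries lay between 3.56 and 4.95 CPM, and the tissues overlapped. The other two were chr9:4162001-4163000, with means of 3.85 CPM in morulae and 4.54 CPM in sperm, and chr2:49323001-49324000, with 3.79 and 4.55 CPM.

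The ends of the range of ratios looked different. The member with the highest morula over sperm ratio, chr7:537001-538000, had 3.41, 4.32 and 4.17 CPM in DDT morulae and 3.99, 3.52 and 4.54 CPM in control morulae. In DDT sperm it had 0.956, 0.877, 0.802 and 0.713 CPM and in control sperm 1.37, 1.33 and 1.05 CPM, so its mean was 3.93-fold higher in morulae. It was followed by chr19:312001-313000 (3.88-fold) and chr1:99071001-99072000 (3.76-fold), and in all 3 the morula and sperm libraries did not overlap. The member with the lowest ratio, chr18:32832001-32833000, had 1.14, 1.05 and 0.874 CPM in DDT morulae and 1.02, 1.19 and 1.14 CPM in control morulae. In DDT sperm it had 3.9, 3.81, 2.73 and 7.51 CPM and in control sperm 2.40, 2.81 and 9.35 CPM. The sperm mean of this window, and of the next 2 by ratio at chr4:26354001-26355000 and chr2:211511001-211512000, was raised by the libraries apart. At the last of these the libraries apart had 14.3 and 16.5 CPM and the other 5 sperm libraries 2.96 to 5.80 CPM, against 1.23 to 2.19 CPM in morulae. Over all members, every morula library lay above every sperm library in 9782 (16.2%, against 13.6% of all windows of chromosomes 1 to 20) and below in 1375 (2.27%, against 5.61%), counts that the choice itself shaped.

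Members lay next to each other. The window on either side of a member was also a member in 46.1% of cases, against 2.31% of all windows, and it was high in sperm alone in 4.54% and 4.39%, high in morulae alone in 14.3% and 14.2%. Merging adjacent members gave 32646 runs, of which 19825 were single windows. The remaining runs numbered 5364 of 2 kb, 2426 of 3 kb, 3330 of 4 kb, 1069 of 5 kb, 438 of 6 kb, 161 of 7 kb, 16 of 8 kb and 17 longer ones. Runs of 4 kb thus outnumbered runs of 3 kb. This was not so for windows high in sperm alone, with 892 runs of 3 kb and 165 of 4 kb, nor for windows high in morulae alone, with 1168 and 349. In all, 22722 members (37.5%) stood in 5031 runs of at least 4 kb, against 1.04% of the windows high in sperm alone and 10.8% of those high in morulae alone. Of the windows with at least 1 CPM in sperm and at least 4 CPM in morulae, 23.1% stood in such runs. The longest run of these windows was 34 kb, against 14 kb for members. When both sperm libraries apart were left out of the rule there were 2519 runs of 3 kb and 3273 of 4 kb, and 32.9% of members stood in runs of at least 4 kb.

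**Figure D3:**
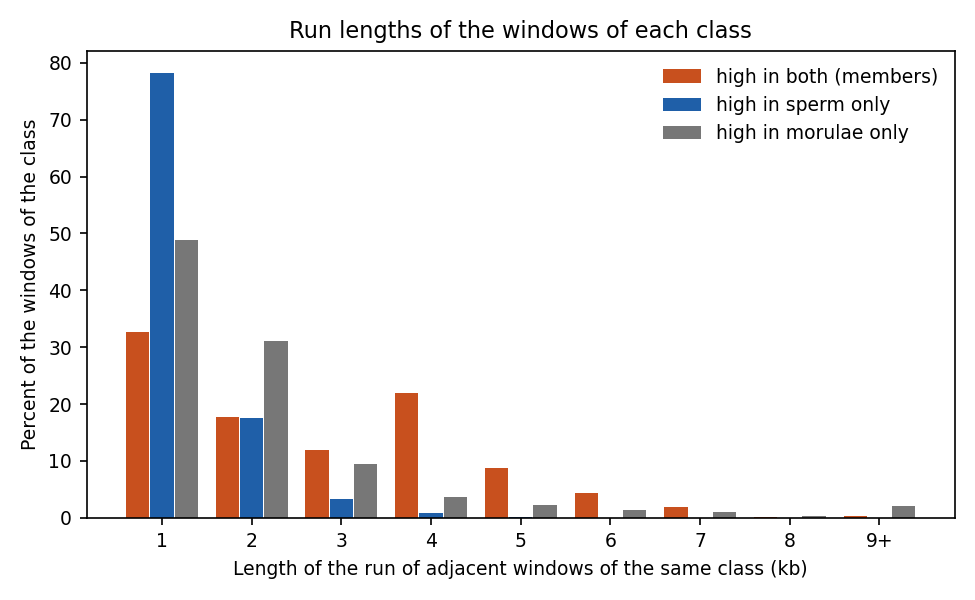
Percent of the windows of each class that stood in runs of adjacent windows of the same class, by length of the run in kb, for members (orange), windows high in sperm alone (blue) and windows high in morulae alone (grey). Runs of 4 kb held 22.0% of the members, 0.804% of the windows high in sperm alone and 3.74% of those high in morulae alone.

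Members in long runs had more signal than single ones. In runs of at least 4 kb the median was 2.37 CPM in morulae and 1.98 CPM in sperm, and 80.3% of these members had the higher mean in morulae. Single members had medians of 1.54 and 1.53 CPM in morulae and sperm, and 48.8% had the higher mean in morulae. All 13 libraries reached 1 CPM in 78.2% of the members in runs of at least 4 kb and in 36.5% of single members. The 25th to 75th percentile of the log2 ratio was 0.06 to 0.55 in the long runs and -0.46 to 0.44 in single members. Without the sperm libraries apart the median log2 ratio was 0.46 in runs of at least 4 kb and 0.09 in single members. With all libraries it was 0.28 and -0.02.

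The median signal of the runs of 4 kb dropped at their edges. A run ends where a window misses a limit, so part of this drop follows from the rule. The inner windows of these runs had medians of 2.46 and 2.47 CPM in morulae and 1.99 and 2.00 CPM in sperm. Their outer windows had 2.19 and 2.20 CPM in morulae and 1.93 and 1.95 CPM in sperm. In the first windows outside, the medians were 0.898 and 0.871 CPM in morulae and 0.718 and 0.720 CPM in sperm. The 75th percentile there was 1.62 CPM in morulae on both sides. From 5.5 kb off the centre the medians stayed between 0.290 and 0.302 CPM in morulae and 0.210 and 0.225 CPM in sperm. Over all windows the medians were 0.291 CPM and 0.26 CPM. In runs of 6 kb the sperm signal was uneven: 2.33 and 2.30 CPM in the central windows and 1.5 and 1.41 CPM in the outermost, while morulae had 2.66 and 2.67 CPM in the centre and 2.13 and 2.06 CPM at the ends.

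**Figure D4:**
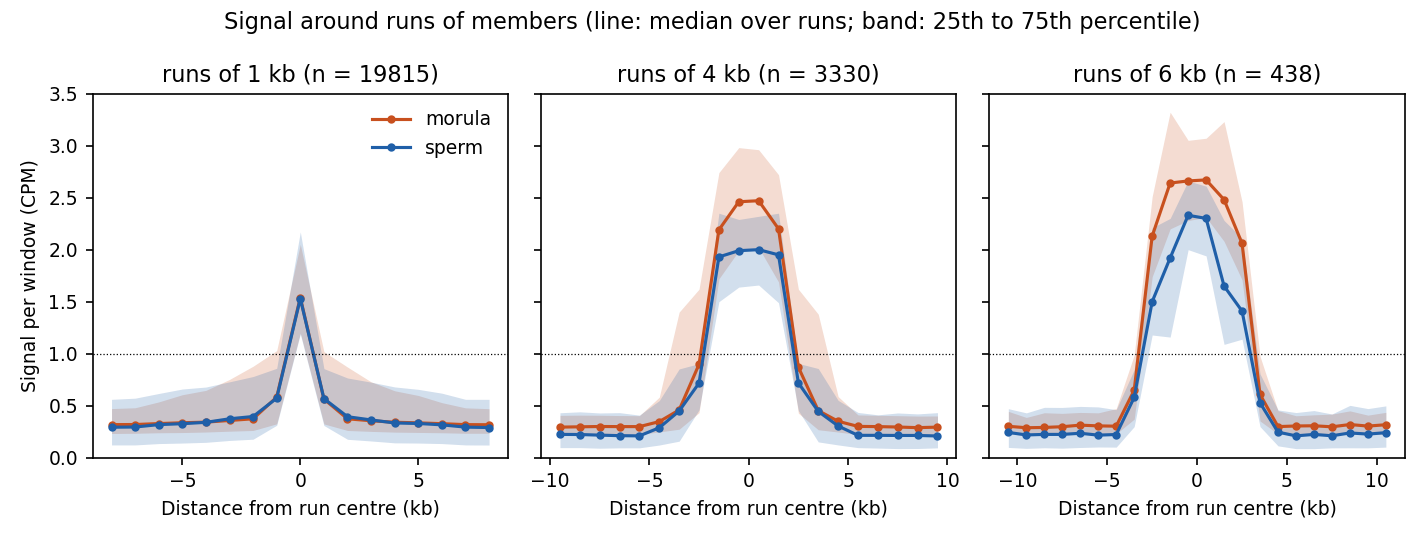
Median signal per 1 kb window (CPM) in morulae (orange) and sperm (blue) by distance from the centre of runs of 1, 4 and 6 kb, with bands from the 25th to the 75th percentile over runs and a dotted line at 1 CPM. Inside runs of 4 kb the morula medians of 2.19 to 2.47 CPM stood above the sperm medians of 1.93 to 2.00 CPM, and single members had 1.54 CPM in morulae and 1.53 CPM in sperm.

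The 5 longest runs showed both directions. The longest covered 14 kb at chr2:156979001-156993000 and had less signal in morulae (mean 1.71 CPM) than in sperm (3.13 CPM). Its means per library were 1.53, 1.72 and 1.69 CPM in DDT morulae, 1.77, 1.91 and 1.67 CPM in control morulae, 3.55, 3.65, 2.88 and 1.66 CPM in DDT sperm and 3.54, 4.14 and 2.49 CPM in control sperm. Sperm was above every morula library except in DDT sperm replicate 4, which overlapped them. The other four, of 11 kb each, had more signal in morulae. They were chr17:39227001-39238000 (2.73 CPM in morulae, 2.08 in sperm), chr12:37001-48000 (2.61 and 1.83), chr1:63498001-63509000 (2.58 and 1.92) and chr14:33199001-33210000 (2.19 and 1.71). The run on chromosome 12 was bounded on both sides by windows with more than the upper limit in morulae, at 5.07 and 4.57 CPM.

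Chromosomes differed in how many members they held. The share of windows that were members was highest on chromosome 2 (2.99%) and chromosome 1 (2.68%) and lowest on chromosome 10 (1.38%) and chromosome 12 (1.68%). Of the windows with high signal in sperm, 55.8% were members on chromosome 2, against 20.8% on chromosome 12, 24.5% on chromosome 10, 27.6% on chromosome 20 and 31.3% on chromosome 19. Those 4 chromosomes had the highest median sperm signal over all their windows, at 0.361, 0.311, 0.309 and 0.322 CPM, against 0.233 CPM on chromosome 2. They also had the highest shares of windows high in sperm alone, from 4.22% on chromosome 10 to 6.28% on chromosome 12. On chromosome 12 the members differed as well: 18.6% stood in runs of at least 4 kb, against 37.5% of all members, and their median log2 ratio of morula over sperm was -0.05, the lowest of the 20 chromosomes.

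**Figure D5:**
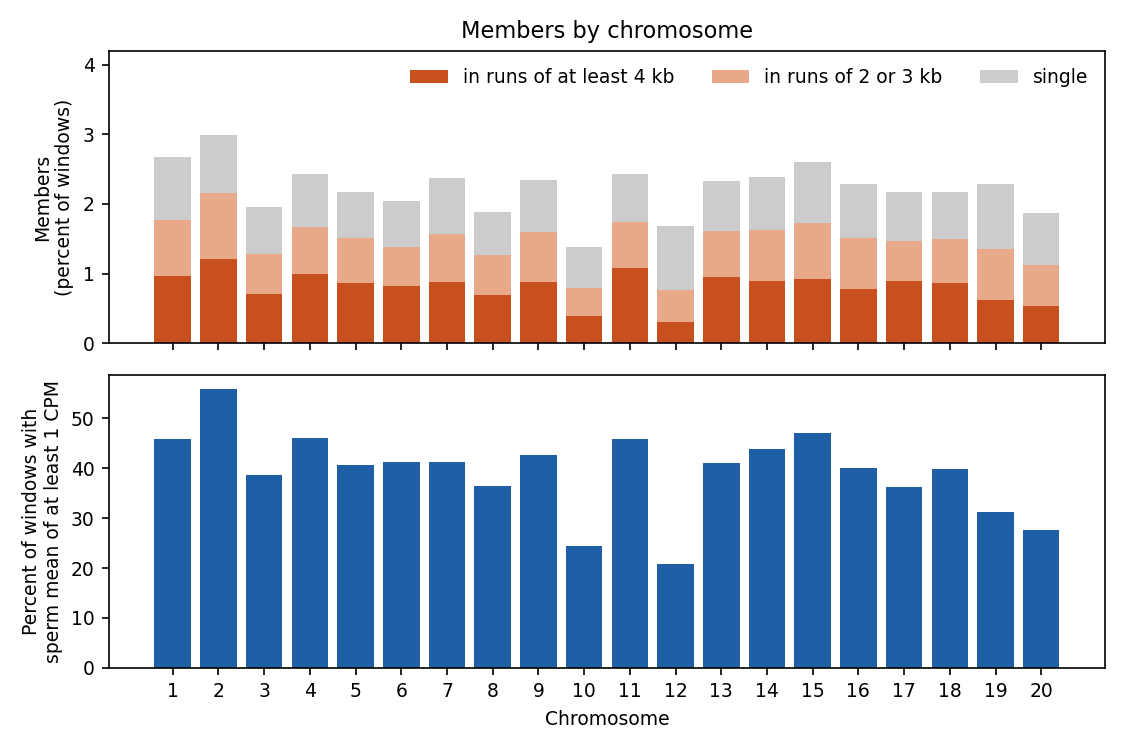
Members as a percent of the windows of each chromosome, split by the length of the run they stand in (top), and members as a percent of the windows with a sperm mean of at least 1 CPM (bottom). Chromosome 2 was highest in both, at 2.99% and 55.8%, while chromosome 10 was lowest at the top (1.38%) and chromosome 12 at the bottom (20.8%).

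Members were also gathered within chromosomes. In 26179 bins of 100 kb, 41.2% held no member and the median was 1 per bin, while the 1% of bins with most members held 9.14% of them. The outer 2 Mb of the chromosomes had members in 3.36% of windows, against 2.28% elsewhere, and 59.0% of the windows high in sperm were members there, against 40.8% elsewhere. The bin with most members was chr15:5400001-5500000, where 52 of 100 windows were members in 28 runs, none was high in sperm alone, and the bin averaged 2.43 CPM in morulae and 1.42 CPM in sperm. It was followed by chr3:133400001-133500000 with 41 members, of which 26 stood in runs of at least 4 kb. The bins chr9:4000001-4100000 and chr12:1-100000 held 38 members each and chr19:300001-400000 held 37. Windows without any count in the 13 libraries can mark gaps of the assembly: 16.5% of members lay within 10 windows of one, against 17.8% of all windows, 11.1% of members in runs of at least 4 kb and 19.7% of single members.

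Membership was repeated between the lineages, which share no library. When the limits were applied to the 7 DDT libraries alone, 60163 windows were chosen, and 53115 of them (88.3%) met the limits in the 6 control libraries, where 2.31% of all windows did. Of the 60539 windows chosen in the control libraries, 87.7% met the limits in the DDT libraries, where 2.30% of all windows did. Most of the rest missed the sperm limit: 8.14% of the windows chosen in the DDT lineage were under 1 CPM in control sperm and 4.74% in control morulae. Of the windows chosen in the control lineage, 6.36% were under 1 CPM in DDT sperm and 4.13% in DDT morulae.

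This choice allows the difference between morula and sperm to be tested in libraries that did not choose the windows. Most of the windows met the same limits there as well, so the shares called partly follow from the choice. In the DDT lineage, at the 60539 windows chosen in the control lineage, edgeR's quasi-likelihood test (adjusted p under 0.05 over 2474205 windows) called 8493 windows higher in morulae than in sperm (14.0%) and 6256 lower (10.3%). Among all windows tested it called 18.3% higher and 16.6% lower. A further 45790 of the chosen windows (75.6%) were not called, which does not show equal signal (median log2 difference 0.14, median SE 0.28). In the control lineage, at the 60163 windows chosen in the DDT lineage, 2870 were higher in morulae than in sperm (4.77%, against 16.9% of all windows) and 1484 lower (2.47%, against 12.3%), with a median of 0.09. Of the windows chosen as high in sperm alone, 90.2% were called lower in morulae in the DDT lineage and 54.1% in the control lineage. Those windows were chosen for less signal in morulae than in sperm, so the choice favoured calls in this direction. The authors' deposited table called 11221 and 4177 of the chosen windows higher and lower in the DDT lineage and 2989 and 1251 in the control lineage. The share over all windows in that table was not counted, so these counts do not set the chosen windows apart from the rest.

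The balance of these calls moved with the scaling, the tool and the libraries used, and its direction turned in some settings. Of the called windows, 57.6% were higher in morulae in the DDT lineage and 65.9% in the control lineage. With library-size scaling these shares were 72.4% and 84.5%, and with DESeq2 size factors 63.4% and 58.1%. Library-size scaling moved the median log2 difference of all windows to 0.105 in the DDT lineage, against -0.012 with TMM, and to 0.180 in the control lineage, against 0.087. Without DDT sperm replicate 4, 26042 windows (43.0%, against 23.0% of all windows) were higher in DDT morulae than in DDT sperm and 8527 (14.1%, against 21%) lower. Without control sperm replicate 3, 25007 (41.6%, against 21.9%) were higher in control morulae than in control sperm and 5626 (9.35%, against 23.1%) lower. The balance turned without other libraries too. In the DDT lineage 3360 windows were higher in morulae and 4863 lower without DDT morula replicate 1. Without DDT sperm replicates 1, 2 or 3 the higher calls were 4694, 4662 and 5393 and the lower calls 5009, 5389 and 6293. By DESeq2 1484 windows were higher and 1742 lower in control morulae than in control sperm. In that lineage 678 were higher and 1054 lower without control sperm replicate 1, and 716 and 2090 without control sperm replicate 2. Shares over all windows were not counted for the settings in which the balance turned. Whether the turn was particular to the chosen windows was therefore not tested. Without the libraries apart, the median log2 differences of the chosen windows were 0.33 in the DDT lineage and 0.30 in the control lineage, against 0.05 over all windows in each.

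The calls fell differently on long runs and on single windows, though the difference between these classes was not tested. In the DDT lineage 15.5% of the chosen windows in runs of at least 4 kb were higher in morulae than in sperm and 1.41% lower, with a median log2 difference of 0.25. Of the single windows 14.3% were higher and 26.3% lower, with a median of -0.19. In the control lineage 4.11% were higher and 0.951% lower in the long runs, and 5.35% and 4.85% among single windows. Without the sperm library apart, 55.1% of the windows in long runs were higher in morulae and 2.83% lower in the DDT lineage, and among single windows 28.3% were higher and 33.0% lower. For the control lineage 47.8% were then higher and 4.89% lower in long runs, and 35.7% and 14.3% among single windows. Without these libraries the test called 23.0% of all windows higher and 21% lower in DDT morulae than in DDT sperm, and in the control lineage 21.9% and 23.1%. The higher calls thus stood apart between long runs and single windows without these libraries, and hardly with them.

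Between the lineages the members did not differ past the test in morulae. No member passed in either direction at an adjusted p under 0.05 by edgeR's quasi-likelihood test (smallest adjusted p = 0.668), where 0% of 2568322 windows were higher and 3.89e-05% lower, and DESeq2 called 0 as well. At an unadjusted p under 0.05 there were 1633 members (2.70%, against 4.90% of all windows), 1432 of them higher and 201 lower in DDT morulae. The median log2 difference of DDT over control was 0.08 over the members and 0.01 over all windows. Only DDT morula replicate 1 had a higher median over the members (2.30 CPM) than every control morula library (1.90, 1.94 and 2.06 CPM). DDT morula replicates 2 and 3 had 1.91 and 1.87 CPM. How far the lean to higher rested on replicate 1 was not tested. Its 5th to 95th percentile was -0.20 to 0.33 over the members and -0.74 to 0.69 over all windows, and the median SE of a member was 0.19. All 3 DDT libraries lay above all 3 control libraries in 3384 members (5.59%, against 4.40% of all windows) and below in 1256 (2.07%, against 5.65%).

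The members of smallest p in morulae were single windows, and 5 of these 6 had morula means of 1.01 to 1.16 CPM, near the lower limit. At these 5 the mean of 1 lineage lay under 1 CPM, so that they met the limit through the lineage in which they were higher. At chr18:41461001-41462000 the signal was 1.74, 1.30 and 1.35 CPM in DDT morulae, against 0.668, 0.782 and 0.552 CPM in control morulae, and the groups did not overlap (log2 difference 1.14, SE 0.24, edgeR adjusted p = 0.668). At chr2:78891001-78892000 it was 1.24, 1.59 and 1.85 CPM in DDT morulae and 0.881, 0.442 and 0.940 CPM in control morulae. At chr8:51114001-51115000 it was 1.69, 1.01 and 1.25 CPM in DDT morulae and 0.622, 0.765 and 0.736 CPM in control morulae. In the other direction chr15:55541001-55542000 had 0.978, 0.711 and 0.325 CPM in DDT morulae, against 1.28, 1.24 and 1.78 CPM in control morulae (log2 difference -1.06, SE 0.25, edgeR adjusted p = 0.763). At chr3:1884001-1885000 the values were 0.687, 0.515 and 0.999 CPM in DDT morulae and 1.5, 1.72 and 1.14 CPM in control morulae. At chr18:52773001-52774000, which had a morula mean of 1.74 CPM, they were 1.40, 1.47 and 0.974 CPM against 3.8, 1.38 and 1.41 CPM, so that the difference rested on 1 control library and was -0.10 on the log2 scale without it. Without DDT morula replicate 1 the adjusted p was 0.0176 at both chr2:78891001-78892000 and chr15:55541001-55542000, the calls that leaving out this library gave.

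In sperm no member passed edgeR's test between the lineages with all 7 libraries and no term for those apart. There the smallest adjusted p was 0.843, and 0% of 2454365 windows passed as higher and 0% as lower. DESeq2 called 2 members higher in DDT sperm. At an unadjusted p under 0.05 there were 2118 members (3.5%, against 5.92% of all windows), of which 2097 were higher and 21 lower in DDT sperm. Of these, 1717 were single windows, which is 8.66% of the single members, while 26 (0.114%) stood in runs of at least 4 kb. All 4 DDT libraries lay above all 3 control libraries in 1783 members (2.94%, against 2.15% of all windows) and below in 674 (1.11%, against 3.63%). The sperm limit can favour such differences at windows near it, since a window can reach a mean of 1 CPM through 1 lineage alone: 2915 members were under 1 CPM in control sperm and 1645 under 1 CPM in DDT sperm. The median SE of a member was 0.36 with all 7 libraries, and 0.16 without the libraries apart.

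Without DDT sperm replicate 4 and control sperm replicate 3, many single members passed as higher in DDT than in control sperm. Of all members 11034 (18.2%) then passed as higher and 212 (0.350%) as lower by edgeR, in 3 DDT against 2 control libraries, where 6.40% of all windows were higher and 4.02% lower. The median SE was 0.16 at members and 0.27 over all windows, so smaller differences could pass at members. Among single members 8220 (41.5%) were higher and 109 (0.550%) lower, with a median log2 difference of 0.33. In runs of at least 4 kb 499 (2.20%) were higher and 46 (0.202%) lower, with a median of 0.11. The difference between these classes was not tested. Single members were not alone in this: 35.6% of the windows high in sperm alone were higher in DDT sperm and 3.46% lower, also with a median of 0.33. Windows with at least 1 CPM in sperm and at least 4 CPM in morulae had a median of 0.27, with 571 (15.8%) higher and 63 (1.74%) lower. The windows high in morulae alone had a median of 0.01, with 4.79% higher and 1.65% lower. These classes were cut at the sperm mean that holds the tested libraries.

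The same test was therefore read at windows that the tested libraries did not choose in sperm. When the sperm limit was applied to the mean of the 2 libraries apart, 1 of each lineage, and the morula limits were kept, 65616 windows were chosen. Among them were 56308 of the members, so this reading is largely of the same windows and is not independent of the one above. Of the 65616, 10045 (15.3%, against 6.40% of all windows) were higher in DDT than in control sperm and 143 (0.218%, against 4.02%) lower in the other 5 libraries. Among those that stood single 7550 (39.9%) were higher and 80 (0.423%) lower, with a median log2 difference of 0.33. In runs of at least 4 kb 521 (1.72%) were higher and 37 (0.122%) lower, with a median of 0.09. Windows that reached the sperm limit in these 2 libraries and were under 1 CPM in morulae were higher in 31.5% and lower in 0.745%, with a median of 0.38. The sets that follow were cut at sperm means that hold the tested libraries. Of the members, 55993 had at least 1 CPM both in DDT and in control sperm, and 9559 of these (17.1%) were higher and 154 (0.275%) lower. Of the 2915 members under 1 CPM in control sperm, 1474 (50.6%) were higher and 0 lower. Of the 1645 under 1 CPM in DDT sperm, 1 (0.0608%) was higher and 58 (3.53%) lower. In the sets under 1 CPM in 1 lineage the cut itself favoured the direction of the calls. The counts and shares in this paragraph were added after seeing the data.

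The values per library show the size of this difference. The median CPM of the single members was 1.59, 1.56 and 1.53 in DDT sperm replicates 1 to 3, against 1.31 and 1.16 in control sperm replicates 1 and 2, and these groups did not overlap. It was 1.72 in DDT sperm replicate 4 and 1.71 in control sperm replicate 3, the libraries apart. In runs of at least 4 kb the medians were 1.81, 1.75 and 1.69 CPM in DDT sperm replicates 1 to 3 and 1.80 and 1.56 CPM in control sperm replicates 1 and 2, which overlapped. The long runs stood above the single members by 1.14, 1.12 and 1.11 times in these DDT libraries and by 1.37 and 1.35 times in these control libraries. In morulae the same ratio was 1.58, 1.52 and 1.51 in the DDT lineage and 1.48, 1.49 and 1.59 in the control lineage, with overlap.

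More members were higher than lower in every further setting tried on these 5 libraries. With library-size scaling 16.9% of members were higher (5.16% of all windows) and 0.730% lower (5.28% of all windows), so that the lean to higher was then not shared by all windows. By DESeq2 16.4% of members were higher (2.99% of all windows) and 0.173% lower (0.818% of all windows). Leaving out 1 more library gave 12.6% to 24.8% of members higher, and 31.0% to 44.7% of the single members, against 1.94% to 6.35% of all windows. Lower were 0.102% to 0.618% of members then, against 0.424% to 4.30% of all windows. With all 7 libraries and a term for the libraries apart, 9470 members (15.6%, against 5.25% of all windows) were higher and 145 (0.239%, against 3.20%) lower. These settings were chosen after seeing the data, except leaving out both libraries. The control libraries were deeper, at 144738902 and 193750804 counts, than the DDT libraries, at 104860839 to 128386419 counts, and the part of depth in the result was not tested.

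Among the members of smallest p in sperm, chr1:249695001-249696000 had 1.87, 1.82, 2.24 and 1.1 CPM in DDT sperm, against 0.608, 0.439 and 0.296 CPM in control sperm. The groups did not overlap (log2 difference 1.96, SE 0.34, edgeR adjusted p = 0.843), and DESeq2 gave it an adjusted p of 0.00506. At chr2:22041001-22042000 the values were 1.93, 1.54, 1.51 and 1.34 CPM in DDT sperm and 0.684, 0.557 and 0.494 CPM in control sperm. At chr2:145933001-145934000 they were 1.77, 1.83, 1.79 and 0.683 CPM in DDT sperm and 0.491, 0.552 and 0.494 CPM in control sperm. All 3 were single members, and their control sperm means of 0.448, 0.578 and 0.512 CPM lay under the limit, so that they met it only through DDT sperm (means of 1.76, 1.58 and 1.52 CPM). In morulae the lineages overlapped at the first 2, and at the third the values were 1.64, 1.96 and 1.32 CPM in DDT morulae and 1.31, 1.05 and 1.23 CPM in control morulae.

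Of the 3 members of smallest p among those lower in DDT sperm, 2 lay in 1 run of 3 kb at chr14:101990001-101993000. Its first window had 0.545, 0.601, 0.374 and 0.505 CPM in DDT sperm and 3.27, 2.48 and 0.527 CPM in control sperm (log2 difference -2.04, SE 0.43, edgeR adjusted p = 0.843). Control sperm replicate 3 therefore lay with the DDT libraries, and without it the adjusted p was 0.0305. In morulae the same window had 2.25, 2.13 and 2.25 CPM in the DDT lineage and 2.43, 2.02 and 2.49 CPM in the control lineage. The 6 morula libraries overlapped, and all lay above every DDT sperm library. The other windows of the run, and chr7:73275001-73276000 with 1.11, 0.830, 0.888 and 0.534 CPM in DDT sperm and 2.71, 2.25 and 0.823 CPM in control sperm, followed the same pattern in sperm. The DDT sperm means of the 3 named by p were 0.506, 0.828 and 0.840 CPM, so that these met the limit only through control sperm.

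The difference of the lineage differences, morula minus sperm, passed the test at no member. By edgeR the smallest adjusted p was 0.869, 0% of 2551260 windows were higher and 0% lower, and 1325 members (2.19%, against 5.68% of all windows) had an unadjusted p under 0.05. Of these 1325, 37 had a larger DDT over control difference in morulae than in sperm and 1288 a smaller one. Among members with a larger DDT over control difference in morulae than in sperm, those of smallest p were the 3 of the run on chromosome 14, with differences of 2.04, 1.47 and 1.95 on the log2 scale (SE 0.47, 0.43 and 0.50) along the run. In the other direction stood chr9:97451001-97452000 (-1.81, SE 0.40), the member of smallest p in either direction, chr4:155769001-155770000 (-1.98, SE 0.45) and chr18:29175001-29176000 (-1.98, SE 0.48). The first of these had 1.59, 1.54 and 1.30 CPM in DDT morulae, 1.62, 1.65 and 1.96 CPM in control morulae, 1.59, 2.01, 2.55 and 1.63 CPM in DDT sperm and 0.815, 0.547 and 0.724 CPM in control sperm. In sperm every DDT library lay above every control library, and in morulae every DDT library lay slightly below. The control sperm means of these 3 windows were 0.695, 0.592 and 0.402 CPM, so that they too met the sperm limit through DDT sperm. Without both sperm libraries apart, 1641 members (2.71%, against 0.221% of all windows) had a smaller DDT over control difference in morulae than in sperm, and 27 (0.0446%, against 0.0994%) a larger one. Of the 1641, 1318 were single members, which is 6.65% of them, and 19 stood in runs of at least 4 kb. Members were not alone in this. Windows high in sperm alone had 1310 smaller (1.59%) and 30 larger (0.0365%). Windows with at least 1 CPM in sperm and at least 4 CPM in morulae had 57 (1.58%) and 46 (1.27%). Windows high in morulae alone had 74 (0.198%) and 124 (0.332%). Members under 1 CPM in control sperm were kept in these counts, and their part was not tested.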

How the data were processed

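MeDIP-seq signal was read from 4 deposited tables with 2782040 windows of 1000 bp. Each holds counts of reads per window and library, made by the authors on build Rnor_6.0; the tools in the submitters' processing notes are Bowtie2, SAMtools, Trimmomatic, FastQC and edgeR (no versions), and duplicate handling is not given in the sources used here. The tables also hold the authors' edgeR log2 fold changes and adjusted p-values, as deposited, used here as an alternative. Counts repeated between tables were identical, and 26 deposited columns of RPKM values were not used.

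CPM was computed over all windows of a library. Tests used R 4.3.3 and edgeR 4.0.16 (glmQLFit with legacy = FALSE, dispersion from the top 5% of windows, TMM scaling, two-sided) on windows whose libraries averaged at least 5 counts. A window passed where its p, adjusted by Benjamini-Hochberg across every window tested, was under 0.05. Every member was tested. In the morula comparison of lineages the spread was pooled completely across windows. Alternatives were other scalings and filters, a replicate block, DESeq2 1.42.0, a trended dispersion and leaving out libraries. The fit was also run on simulated counts with the same dispersion in all windows and no libraries apart, a simpler setting than these data. A unit of 3 counts was taken as the counting floor, and counting errors cover counting only, since reads are not independent molecules.

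The members, the comparison classes and the lists of settings were chosen with earlier results of these data known. Windows are named by rule: the 3 of smallest p per direction and comparison, the 5 with the highest lowest library, the 3 at each end of the ratio, the 3 on each side of each limit, the 5 longest runs and the 5 bins with most members. Names by CpG content or gene could not be given, since sequence and annotation of Rnor_6.0 were not used here.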

Additional observations from a re-analysis of the deposited data

Results flagged for a closer look

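In each of 4 results DDT sperm replicate 4 lay far from the other 3 libraries of its group, by a test for a single outlying value in a group of 4. It had 14.2% of its counts in the members, against 10.3% to 10.9% in DDT sperm replicates 1 to 3. At chr8:51114001-51115000 it had 3.38 CPM, against 1.73, 1.65 and 1.51 CPM. At chr2:211511001-211512000 it had 14.3 CPM, against 5.80, 5.33 and 4.14 CPM. At chr2:145933001-145934000 it had 0.683 CPM, against 1.77, 1.83 and 1.79 CPM. Of 32 groups of 4 examined 4 were marked in this way. The groups share the same libraries, and most are windows named for extreme values in them, so no chance rate can be set beside this count. Groups of 3 were too small for this test, and control sperm replicate 3 was therefore not examined, though it had 14.4% of its counts in the members, 3.55 CPM in the first of these windows and 16.5 CPM in the second.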

How the results depend on the processing

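The number of members stayed within 58794 and 61564 when any 1 library was left out, and was 36434 when each library had to reach 1 CPM. Of members, 33.2% under that rule, and 32.9% without the sperm libraries apart (DDT sperm replicate 4 and control sperm replicate 3), stood in runs of at least 4 kb. With TMM library sizes 90.1% of windows chosen in the control lineage and 86.2% of those chosen in the DDT lineage met the limits in the other lineage. Leaving out 1 library gave 82.8% to 89.5% and 81.5% to 89.3%.

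In morulae, leaving out 1 library gave 0 to 1 members higher and 0 to 1 lower in DDT than in control, the calls coming without DDT morula replicate 1. In sperm DESeq2 called 2 members higher and the authors' deposited adjusted p 1 higher. Without both libraries apart 11034 were higher and 212 lower, with library-size scaling of these 5 libraries 10233 and 442, with DESeq2 size factors 10996 and 207, and by DESeq2 9916 and 105. A term for the libraries apart gave 9470 and 145. Leaving out libraries gave 0 to 14992 higher and 0 to 374 lower, the 0 with 1 library left out and the upper values without control sperm replicate 1 and both libraries apart. A comparison left with 1 control library takes its spread from the others. For the interaction, 27 members were higher and 1641 lower without both libraries apart, and 0 to 2 were higher with 1 library left out, the 2 without control sperm replicate 3.

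For morula against sperm in the DDT lineage, at windows chosen in the control lineage, 15419 were higher with library-size scaling, 4092 lower with a minimum of 10 counts per library and 26042 higher without DDT sperm replicate 4. Leaving out 1 library gave 3360 to 26042 higher and 3215 to 8527 lower, the lowest without DDT morula replicates 1 and 3. In the control lineage, at windows chosen in the DDT lineage, 1484 were higher by DESeq2, 9411 higher with library-size scaling and 847 lower with the minimum of 10 counts per library. There leaving out 1 library gave 395 to 25007 higher and 73 to 5626 lower, the highest without control sperm replicate 3. The causes of these moves were not tested, nor was it tested whether they were particular to the chosen windows. With 3 or 4 libraries a group, and median SE of 0.19 in morulae and 0.36 in sperm, small differences at a member could not be detected.

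With the replicate number as a replicate block, 27230 windows were higher in morulae in the DDT lineage, in libraries that share a number, which leaves out DDT sperm replicate 4. Whether the numbers pair the samples stayed unclear. Over the members, deviations of same-numbered libraries correlated at -0.594 to 0.561 between the lineages in sperm, -0.0783 to 0.0170 in morulae and -0.0479 to 0.0639 between tissues. Between control morulae and control sperm each number matched its own best, though only at r = 0.034 to 0.0639. Elsewhere only number 2 did so, in sperm between the lineages and between tissues in the DDT lineage. The block changed no other count by over 1.5 times. The planned promoter window and the planned names by gene or CpG content were not run, since no annotation or sequence of Rnor_6.0 was used.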

Other observations

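Neighbouring members resembled each other. Over 27907 adjacent pairs the log2 ratio of morula over sperm correlated at r = 0.31, the log2 morula signal at 0.358 and the log2 sperm signal at 0.316, as a description across windows that share all libraries. Over the members themselves the log2 morula and sperm signals correlated at 0.473, against 0.671 over all windows with signal in both, with the range of the members cut by the rule.

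Windows with a sperm mean of at least 1 CPM and at least 4 CPM in morulae numbered 3619, with medians of 4.68 CPM in morulae and 2.92 CPM in sperm. They adjoined members: 2.90% and 2.86% of the windows beside a member belonged to them, and 9.95% of them stood in runs of 9 kb or longer, against 0.287% of members.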
